A study of Mus musculus with 12 samples.

Results

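The effect of dextran sulfate sodium (DSS) on colon gene expression was measured over 2 diets at once. All 12 colon libraries of the study entered the comparison, 6 from mice given 2% DSS and 6 from mice without it. The libraries formed 4 groups of 3, which were a high-fat diet with DSS (HFD+DSS), a diet labelled CD with DSS (CD+DSS), the high-fat diet alone (HFD) and CD alone. The abbreviation CD is not spelled out in the labels. All mice were wild-type C57BL/6J, and the tissue was labelled only as colon. The labels give no age, sex, segment of colon or length of the diet and DSS courses. The study was set up around high-fat feeding, autophagy and colitis, and the question taken up here is which colon genes moved with DSS when diet was held as a covariate.

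DSS is a sulfated polysaccharide that damages the colonic epithelium of rodents when taken in drinking water, so that luminal bacteria reach the tissue beneath. In the injured colon, interleukin 6 family cytokines and interleukin 22 are known to act on epithelial cells through the transcription factor STAT3, which switches on antibacterial lectins and its own inhibitor Socs3. Injury is also known to draw in neutrophils, to turn on matrix metalloproteinases in stromal cells and to disturb the Wnt-driven crypt base where stem cells reside.

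Expression was deposited as FPKM, a fragment count scaled for gene length and library size, for 54532 genes. A gene was tested where 3 or more of the 12 libraries reached an FPKM of 1, which left 14179. About 14700000 to 17900000 fragments fell on genes in each library. Colon identity was checked with 25 colonocyte and absorption genes, of which 24 were tested, and their FPKM summed to 5916 to 15498 in the DSS libraries and 6024 to 18817 in the others. Markers of stratified squamous epithelium were mostly below the filter, with 2 of 14 tested. CD replicate 3 stood out among them, with Krt15 at 17.4, Krt4 at 6.10 and Krt5 at 3.08, against at most 0.503 in any other library, and without it 523 genes were called. HFD+DSS replicates 1 and 3 lay far from the other libraries on principal components 2 and 3 (17.5% and 13.1% of variance). Without these 2 libraries, a comparison added after the data were seen, 139 genes passed the test, 105 higher and 34 lower. Whether the 3 samples of each group were separate animals is not stated in the labels, so the p-values measure only the spread between these samples.

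With DSS, 298 genes rose and 157 fell at a Benjamini-Hochberg adjusted p under 0.05 in limma, 455 genes in all or 3.21% of those tested (2.10% higher, 1.11% lower). The rises were led by the antibacterial lectin genes Reg3b and Reg3g, the chloride channel accessory gene Clca4b and the matrix protease gene Mmp3, and among genes whose groups did not overlap the falls by Nxpe2, the microtubule-binding protein gene Tppp and the matrix proteoglycan gene Ogn. Larger falls than that of Tppp, with overlapping groups, were those of the resistin-like gene Retnla and the mitochondrial tRNA gene mt-Te, both named after their values were seen. Each lost its call in at least 1 of 12 fits that left out a library. Rises were the larger changes. Of the 298 genes, 96 had a log2 difference of 1 or more and 14 of 2 or more, and of the 157 that fell, 31 and 1 did so in size. The median DSS minus no-DSS difference was 0.75 among the genes that rose, -0.66 among those that fell and 0.01 over all genes tested, on the log2(FPKM + 1) scale used throughout for differences. The 6 DSS libraries and the 6 others did not overlap for 490 genes tested (3.46%). They were apart for 204 of the genes that rose, against 307 genes (2.17%) with DSS above over all genes tested, and for 102 of those that fell, against 183 (1.29%) with DSS below.

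**Figure D1:**
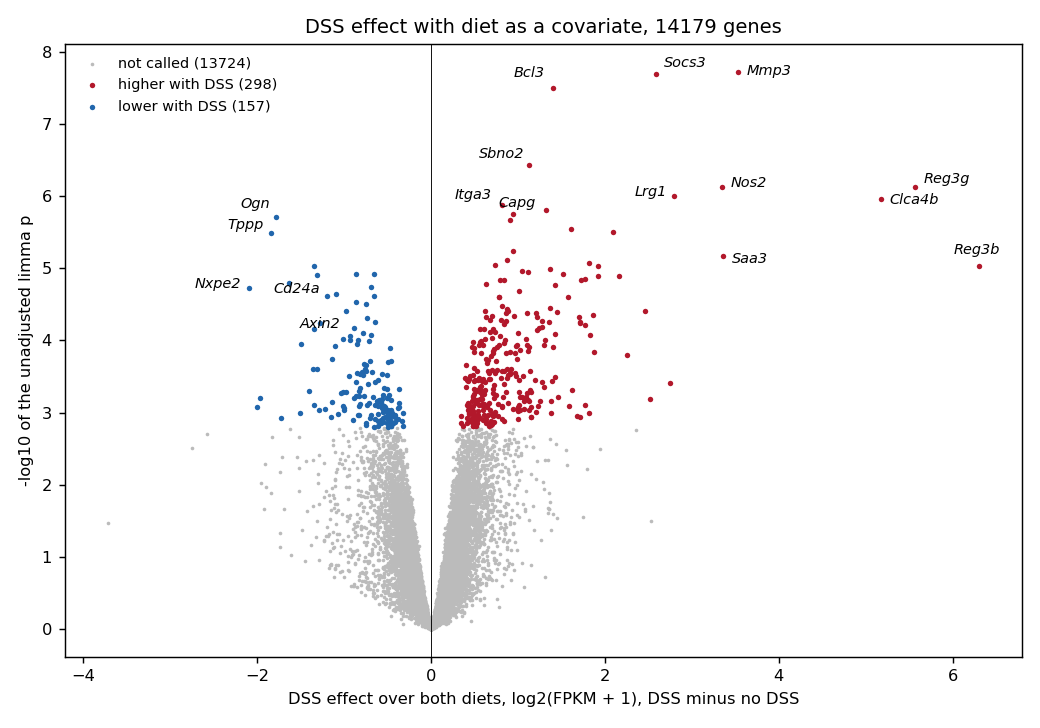
Each of the 14179 genes tested is a point, with the DSS minus no-DSS difference in log2(FPKM + 1) on the x axis and -log10 of the unadjusted limma p on the y axis. Red marks the 298 genes called higher and blue the 157 called lower, and the red points reach to 6.30 (Reg3b) while the blue points end at -2.09 (Nxpe2).

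Antibacterial defence of the epithelium held the largest rises. Of 25 genes on a list of epithelial antibacterial defence, 23 were tested, and 9 rose and 0 fell (39.1% higher, against 2.10% of all genes tested), with a list median of 0.84. The 9 were Reg3b, Reg3g, Clca4b, Nos2, Duoxa2, Duox2, Slpi, Pla2g5 and Reg1. The other 14 were not called, and 9 of them were negative. The lowest were Ang4 (-2.74), Itln1 (-1.9) and Reg4 (-1.61), and the highest were Pla2g2a (1.26) and Reg3a (0.89). With the 9 called genes included, 14 of 23 members were positive.

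Reg3b (ENSMUSG00000071356, mm10 chromosome 6, 78370657 to 78373466) encodes a secreted C-type lectin that binds bacteria. Its FPKM ranged from 305.0 to 5408 with a median of 3559.9 in the DSS libraries, against 1.63 to 133 with a median of 46.8 in the libraries without DSS. The lowest DSS library, CD+DSS replicate 1, still lay above every library without DSS, and the difference was 6.30 ± 0.87 (SE; limma adjusted p = 0.00555). On the same chromosome, Reg3g (ENSMUSG00000030017, 78466269 to 78468872) was at 68.7 to 797 with DSS (median 539) and at 0.794 to 19.3 without (median 10.2), also with no overlap (5.56 ± 0.60, limma adjusted p = 0.00179). The Reg3 genes are close copies of each other, and the sources used here do not say how fragments matching several genes were counted.

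Clca4b (ENSMUSG00000074195, chromosome 3, 144910921 to 144932529) belongs to a family of secreted regulators of chloride conductance. FPKM was 1251, 251 and 167 in HFD+DSS, 111, 108 and 175 in CD+DSS, 3.56, 2.27 and 7.16 in HFD and 2.78, 17.1 and 5.32 in CD. All DSS libraries were above 100, and HFD+DSS replicate 1 was far above the rest. The difference was 5.17 ± 0.58 (limma adjusted p = 0.00195), and the Clca4 genes are also near copies of each other.

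Several genes of oxidant production passed the test, described here one by one, while the epithelial oxidase gene Nox1, on the same antibacterial list, was at -0.68 and was not called. Nos2, the inducible nitric oxide synthase (ENSMUSG00000020826, chromosome 11, 78920787 to 78960254), was at 16.0 to 82.7 with DSS (median 18.8) and at 0.394 to 2.67 without (median 1.60), a difference of 3.35 ± 0.36 (limma adjusted p = 0.00179). The highest value again came from HFD+DSS replicate 1, and the other DSS libraries stayed close to the median. Gch1, which makes the synthase's cofactor tetrahydrobiopterin, was at 6.97 to 9.80 with DSS and 1.98 to 5.54 without (0.94 ± 0.12, limma adjusted p = 0.00481). Gchfr, the regulatory protein of that enzyme, also rose (1.01 ± 0.21, limma adjusted p = 0.0254). Duox2, an epithelial oxidase that releases hydrogen peroxide into the lumen, was at 50.0 to 106 with DSS and 19.3 to 44.1 without (1.22 ± 0.21, limma adjusted p = 0.0116). Its maturation factor gene Duoxa2, which lies beside it on chromosome 2 (Duox2 at 122279247 to 122298449, Duoxa2 at 122298900 to 122302885), was at 39.0 to 106 with DSS and 7.62 to 37.3 without (1.77 ± 0.30, limma adjusted p = 0.0110). Cyba, a membrane subunit of NADPH oxidases, rose by 1.01 ± 0.22 (limma adjusted p = 0.0314), with groups that overlapped narrowly (73.9 to 158 with DSS and 37.9 to 76.1 without). Gch1, Gchfr and Cyba were named after their values were seen. Cyba lost its call in 8 of the 12 fits that each left out a library (adjusted p up to 0.0897), and Gchfr in at least 1.

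Other secreted defence genes moved less evenly. Slpi, a secreted inhibitor of neutrophil proteases, was at 123, 42.9 and 40.0 in HFD+DSS and 28.1, 9.17 and 21.6 in CD+DSS, against 8.67, 6.48 and 11.7 in HFD and 8.84, 11.7 and 9.50 in CD. CD+DSS replicate 2 lay inside the range of the libraries without DSS, and the call (1.71 ± 0.40, limma adjusted p = 0.0419) was lost in 9 of 12 fits that left out a library, with adjusted p up to 0.114. Pla2g5, a secreted phospholipase, was at 9.25 to 20.1 with DSS (median 12.1) and 1.06 to 6.73 without (median 3.32), with no overlap (1.71 ± 0.28, limma adjusted p = 0.0106). Reg1 rose by 1.03 ± 0.24 (limma adjusted p = 0.0391), and that call was lost in 8 of 12 such fits. The fucosyltransferase gene Fut2, which decorates the epithelial surface with fucose, was at 48.3 to 122 with DSS and 20.9 to 35.6 without (1.27 ± 0.21, limma adjusted p = 0.0114), and Pglyrp1, a peptidoglycan-binding protein gene, rose by 1.12 ± 0.20 (limma adjusted p = 0.0143). Fut2 and Pglyrp1 were named after their values were seen.

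Acute-phase genes, whose products are secreted during inflammation, had 12 of 20 members tested, and 5 of the 12 rose (41.7%, against 2.10% of all genes tested), with a median of 1.34. Saa3, a serum amyloid A gene of inflamed epithelium and macrophages (ENSMUSG00000040026, chromosome 7, 46711998 to 46715700), was at 11.7 to 75.9 with DSS (median 21.7) and 0.220 to 4.93 without (median 1.31). The groups did not overlap (3.36 ± 0.45, limma adjusted p = 0.00537). Lrg1, a secreted glycoprotein (ENSMUSG00000037095, chromosome 17, 56119678 to 56122001), was at 38.6, 26.7 and 38.1 in HFD+DSS and 9.34, 9.10 and 16.1 in CD+DSS, against 6.11, 1.21 and 1.48 in HFD and 1.49, 1.36 and 2.04 in CD. Every DSS library lay above every other, and the HFD+DSS libraries were the highest (2.79 ± 0.31, limma adjusted p = 0.00195). Lcn2, which withholds iron from bacteria, was at 2.82 to 14.3 with DSS and 0.398 to 0.892 without (1.92 ± 0.27, limma adjusted p = 0.00555), and the metalloreductase gene Steap4 at 10.1 to 25.2 with DSS and 3.15 to 7.88 without (1.52 ± 0.21, limma adjusted p = 0.00555). Serpina3n rose by 1.67 ± 0.40 (limma adjusted p = 0.0417), a call lost in at least 1 of 12 fits that left out a library. Saa2, Orm1 and 6 other members were below the filter and were not tested.

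Inflammatory cytokines were low in whole colon, and 9 of 19 listed genes were tested. Of these, 5 rose (55.6%, against 2.10% of all genes tested), which were Nos2, Tnf, Il11, Il33 and Lif (3 to 5 with a library left out). Il11 and Lif reached an FPKM of 1 only in DSS libraries, so they passed the filter through the group where they were high and the 55.6% is no measure of the list. The same holds for Cxcl1, Cxcl2, Cxcl5, Lcn2, Reg1, S100a8, S100a9 and Mmp3 in the other lists described here, and in the other direction for Tnfrsf19. Tnf was at 2.17 to 6.84 with DSS (median 4.00) and 0.637 to 1.63 without (median 1.10), with no overlap (1.21 ± 0.19, limma adjusted p = 0.00969). Il11, an interleukin 6 family cytokine made by stromal cells, was at 0.717 to 16.9 with DSS and 0.0298 to 0.389 without, also with no overlap. Its difference of 1.81 ± 0.42 (limma adjusted p = 0.0401) was lost as a call in 9 of 12 fits that left out a library, with adjusted p up to 0.103. Il33 rose by 1.15 ± 0.27 and Lif by 0.69 ± 0.13 (limma adjusted p = 0.0425 and 0.0169), and the Il33 call was lost in at least 1 of 12 such fits. Il1b was positive at 1.08 ± 0.42 and did not pass (limma adjusted p = 0.148). Il6 was below the filter, at 0.122 to 1.52 with DSS and 0 to 0.0700 without, and Il22 reached 3.90 with DSS and 0.115 without. These values are a description, as neither gene was tested.

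Genes of the interleukin 6 and STAT3 pathway were all measured, and 9 of 24 rose and 0 fell (37.5% higher, against 2.10% of all genes tested), with a median of 0.65. Among the list's receptor genes, Il4ra encodes a subunit shared by interleukins 4 and 13, which are not of the interleukin 6 family. Il4ra was at 14.5 to 25.9 with DSS and 8.10 to 12.9 without (0.95 ± 0.15, limma adjusted p = 0.00993). Osmr, the receptor for oncostatin M, was at 1.82 to 4.93 with DSS and 1.09 to 1.87 without, with narrow overlap (0.77 ± 0.17, limma adjusted p = 0.0374), a call lost in 10 of 12 fits that left out a library (adjusted p up to 0.0938). The other listed receptor genes did not pass, with Il6ra at -0.15, Il6st at 0.10, Lifr at -0.28, Il11ra1 at 0.15, Il22ra1 at 0.05 and Il10rb at 0.34. Nor did the kinase genes Jak1 (-0.06), Jak2 (-0.32) and Tyk2 (0.25). The factor itself, Stat3 (ENSMUSG00000004040, chromosome 11, 100885098 to 100939540), was at 23.1 to 26.2 in the DSS libraries (median 24.8), against 12.1 to 19.1 without DSS (median 13.8). That narrow DSS range did not overlap the other group (0.74 ± 0.10, limma adjusted p = 0.00555).

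Several of the pathway's target and feedback genes carried larger differences than Stat3. Other members of the list did not pass, with Socs1 at 0.95, Junb at 0.68, Pim1 at 0.67, Pim3 at 0.63, Batf3 at 0.18 and Fosl2 at -0.05. Socs3, whose protein shuts STAT3 signalling off again (ENSMUSG00000053113, chromosome 11, 117966079 to 117970047), was at 48.7, 32.9 and 28.3 in HFD+DSS and 36.0, 20.9 and 33.7 in CD+DSS, against 5.82, 4.22 and 4.49 in HFD and 2.45, 5.46 and 5.66 in CD. The lowest DSS value was well above the highest of the others, and the difference was 2.59 ± 0.20 (limma adjusted p = 0.000144). Bcl3, a nuclear NF-kappaB cofactor (ENSMUSG00000053175, chromosome 7, 19808462 to 19822770), was at 29.8 to 40.5 with DSS (median 31.8) and 9.88 to 14.7 without (median 11.6). Its groups were compact and apart, with 1.40 ± 0.11 (limma adjusted p = 0.000152). Sbno2, a helicase-family gene that STAT3 is known to induce (ENSMUSG00000035673, chromosome 10, 80056992 to 80105571), was at 13.4 to 19.0 with DSS and 5.74 to 7.71 without (median 6.44), a difference of 1.13 ± 0.11 (limma adjusted p = 0.00132). The transcription factor gene Cebpb was at 14.3 to 31.3 with DSS and 5.31 to 11.1 without (1.35 ± 0.22, limma adjusted p = 0.0105), and Cebpd rose by 1.03 ± 0.23 (limma adjusted p = 0.0342). The Cebpd call was lost in at least 1 of 12 fits that left out a library. Of the 1504 exon bases of Cebpb, 312 overlap Tmem189 on the opposite strand (0.49 ± 0.11, limma adjusted p = 0.0408), and reads there cannot be assigned where strand was not used.

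Promoters of 3 of these genes are shown because each holds a STAT-type palindrome, TTCNNNGAA, in the 250 bases before its RefSeq start site. The sequences are from RefSeq (GRCm38.p6, the mm10 build), 5′ to 3′ on the gene's strand, with the match in capitals. The window of Socs3 is chr11:117969367-117969616 on the minus strand, with the match starting 154 bases before the start site. That of Reg3b is chr6:78370635-78370884 on the plus strand (129 bases before), and that of Sbno2 is chr10:80102703-80102952 on the minus strand (26 bases before). The first RefSeq start listed for each gene was used. By the GENCODE coordinates given above, the windows of Socs3 and Sbno2 lie within the gene, downstream of its GENCODE start. The window of Reg3b runs across that gene's GENCODE start.
Socs3: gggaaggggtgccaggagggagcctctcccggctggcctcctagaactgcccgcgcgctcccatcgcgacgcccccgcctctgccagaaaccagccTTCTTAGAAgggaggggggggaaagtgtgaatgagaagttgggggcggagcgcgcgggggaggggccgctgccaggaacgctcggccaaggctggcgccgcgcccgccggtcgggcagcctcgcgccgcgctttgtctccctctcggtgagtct
Reg3b: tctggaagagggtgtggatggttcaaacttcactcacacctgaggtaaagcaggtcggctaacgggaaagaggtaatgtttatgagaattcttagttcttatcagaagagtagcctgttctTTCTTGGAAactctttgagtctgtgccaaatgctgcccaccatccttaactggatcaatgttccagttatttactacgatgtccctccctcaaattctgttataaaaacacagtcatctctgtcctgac
Sbno2: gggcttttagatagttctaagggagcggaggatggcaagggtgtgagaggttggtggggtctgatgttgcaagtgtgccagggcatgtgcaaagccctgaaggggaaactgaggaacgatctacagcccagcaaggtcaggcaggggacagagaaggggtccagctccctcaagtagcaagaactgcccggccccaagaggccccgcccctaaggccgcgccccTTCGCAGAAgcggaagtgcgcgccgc
The same letters were found in the windows of 16 of 229 genes that rose (6.99%), 5 of 112 that fell (4.46%) and 591 of 10004 genes tested (5.91%), searching both strands. A match describes the letters only and is no evidence of binding.

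Among 22 genes of NF-kappaB and TNF feedback, 4 rose and 0 fell (18.2%, against 2.10%), with a median of 0.41. They were Zc3h12a, a ribonuclease that destroys cytokine transcripts (1.00 ± 0.17, limma adjusted p = 0.0122), the adaptor gene Myd88 (0.57 ± 0.11, limma adjusted p = 0.0156), the NF-kappaB subunit gene Rela (0.40 ± 0.08, limma adjusted p = 0.0206) and the lipopolysaccharide coreceptor gene Cd14 (0.81 ± 0.18, limma adjusted p = 0.0375). Without HFD+DSS replicates 1 and 3 the list had 1 call, and the lowest count with a single library left out was also 1. Rela lost its call in 5 of 12 such fits, Cd14 in at least 1 and Myd88 without CD replicate 1 (adjusted p = 0.0527).

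The chemokine list had a median of 0.17. Of 22 tested, 4 rose and 0 fell (18.2% higher, against 2.10% of all genes tested), which were Cxcl5, Ccl2, Cxcl1 and Cx3cl1 (1 to 4 with a library left out, and 2 without HFD+DSS replicates 1 and 3). Cxcl5, a ligand of the neutrophil receptor Cxcr2, was at 1.23 to 16.9 with DSS (median 3.44) and 0 to 0.922 without (median 0.101), a difference of 2.25 ± 0.42 (limma adjusted p = 0.0162). It lost the call without HFD replicate 2 (adjusted p = 0.0525). The monocyte attractant Ccl2 was at 3.96 to 13.7 with DSS and 0.447 to 1.69 without, with no overlap (1.71 ± 0.28, limma adjusted p = 0.0105). Cxcl1 rose by 1.38 ± 0.31 (limma adjusted p = 0.0355), a call lost in at least 1 of 12 fits that left out a library. The rise of Cx3cl1 was small (0.50 ± 0.11, limma adjusted p = 0.0354) and was lost in 6 of 12 fits that left out a library. Other attractants of neutrophils and monocytes were positive and did not pass, with Ccl7 at 1.45, Cxcl2 at 1.17, Ccl3 at 0.62 and Ccl4 at 0.52.

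Neutrophil genes were near the detection limit. Of 17 markers, 6 were tested and 1 (16.7%, against 2.10% of all genes tested), S100a9, rose. This subunit of the antibacterial protein calprotectin was at 2.91 to 16.6 with DSS (median 4.33) and 0 to 0.977 without (median 0.245), with no overlap (2.46 ± 0.39, limma adjusted p = 0.00964). Its partner S100a8 was at 0.427 to 22.3 with DSS and 0 to 0.452 without and did not pass (1.94 ± 0.53, limma adjusted p = 0.0647). Markers below the filter were not tested and differed among themselves. Ngp was listed at 0 in all 12 libraries, Mpo was at most 0.0459 with DSS and 0.0183 without, and Cxcr2 at most 0.462 and 0.0209. Higher values with DSS were reached by Mmp9 (3.45, against 0.355 without), Clec4d (3.35 against 0.716), Retnlg (2.6 against 0.106) and Trem1 (1.12 against 0.34). The granule gene Ltf, untested on the antibacterial list, reached 34.0 with DSS and 0.156 without. Elane was at most 0 with DSS and 0.122 without. Ly6g, by contrast, was at 33.8 to 521 with DSS and 0.800 to 165 without, levels far above the other neutrophil markers, and the Ly6 genes are close relatives (2.52 ± 1.04, limma adjusted p = 0.169). The summed FPKM of the 6 tested markers was 112 to 594 with DSS and 44.0 to 258 without. Ly6g alone reached 521 and 165, so the sum is no measure of the other markers.

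Other immune lineages showed few calls. Macrophage and monocyte markers (17 tested, median 0.07), T and NK cell markers (18 tested, median 0.09) and MHC class II genes (10 tested, median 0.31) had 0 calls in either direction. Over all genes tested 3.21% were called, so lists of this size can hold few calls and a count of 0 says little. Interferon response genes had a median of 0.41 and 2 of 25 rose (8.00%, against 2.10%), Psmb8 (0.84 ± 0.20, limma adjusted p = 0.0446) and Irf8 (0.71 ± 0.15, limma adjusted p = 0.0302), while without HFD+DSS replicates 1 and 3 the count was 0.

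The plasma cell genes Jchain and Tnfrsf17 fell. Of 17 B and plasma cell markers, 2 fell (11.8%, against 1.11% of all genes tested) and 0 rose. Jchain, the chain that joins polymeric immunoglobulin A (ENSMUSG00000067149, chromosome 5, 88519809 to 88527891), was at 127 to 514 with DSS (median 291) and 573 to 1024 without (median 706), a difference of -1.35 ± 0.30 (limma adjusted p = 0.0374). Tnfrsf17, the survival receptor of plasma cells, was at 0.563 to 1.93 with DSS and 2.08 to 4.45 without (-0.85 ± 0.15, limma adjusted p = 0.0141). The light chain constant gene Igkc was at 1938 to 5173 with DSS and 4265 to 7901 without, with overlap, and did not pass (-0.94 ± 0.29, limma adjusted p = 0.0828). The Jchain call was lost in 9 of 12 fits that left out a library (adjusted p up to 0.101), and without HFD+DSS replicates 1 and 3 the list had 0 calls. In whole tissue, fewer cells of a type and less RNA per cell cannot be told apart.

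The protease genes Mmp3, Mmp10 and Mmp13 and the inhibitor gene Timp1 rose, which made 4 of 14 tested genes of matrix proteases and inhibitors with 0 falling (28.6%, against 2.10%, and 2 to 5 genes with a library left out). Mmp3, stromelysin-1 (ENSMUSG00000043613, chromosome 9, 7445822 to 7455975), was at 10.6, 13.4 and 12.5 in HFD+DSS and 19.1, 10.1 and 47.4 in CD+DSS, against 0.244, 0.220 and 0.435 in HFD and 0.666, 0.989 and 0.466 in CD. Each DSS library was above 10 and each other library below 1, the difference being 3.52 ± 0.27 (limma adjusted p = 0.000144). Mmp10, stromelysin-2, was at 4.45, 17.0 and 1.52 in HFD+DSS and 12.2, 19.7 and 52.0 in CD+DSS, against 1.75, 1.88 and 1.33 in HFD and 0.766, 0.850 and 0.662 in CD. HFD+DSS replicate 3 lay within the range of the libraries without DSS (2.52 ± 0.56, limma adjusted p = 0.0352). Collagenase-3, encoded by Mmp13, was at 2.12 to 23.1 with DSS and 1.39 to 3.95 without, with overlap (1.62 ± 0.34, limma adjusted p = 0.0309). The Mmp10 and Mmp13 calls were lost in 8 and 5 of 12 fits that left out a library (adjusted p up to 0.0908 and 0.0737), and both with a replicate block. Timp1, which inhibits these proteases and is also a STAT3 target, was at 2.84 to 19.4 with DSS and 1.27 to 1.76 without (1.83 ± 0.32, limma adjusted p = 0.0126). The other 10 members did not pass, among them Mmp14 (0.41), Mmp2 (0.13), Mmp7 (0.06) and the plasminogen activator genes Plat (0.15) and Plau (-0.28).

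The 3 metalloproteinase genes lie in one stretch of chromosome 9 (Mmp13 at 7272514 to 7283331, Mmp3 at 7445822 to 7455975, Mmp10 at 7502352 to 7510240). Their promoters are shown because each holds the AP-1 type heptamer TGANTCA, in capitals, close to the start site. RefSeq windows of 250 bases (GRCm38.p6) on the plus strand are chr9:7445572-7445821 for Mmp3, chr9:7502092-7502341 for Mmp10 and chr9:7272264-7272513 for Mmp13. The matches start 46, 63 and 35 bases before the start site.
Mmp3: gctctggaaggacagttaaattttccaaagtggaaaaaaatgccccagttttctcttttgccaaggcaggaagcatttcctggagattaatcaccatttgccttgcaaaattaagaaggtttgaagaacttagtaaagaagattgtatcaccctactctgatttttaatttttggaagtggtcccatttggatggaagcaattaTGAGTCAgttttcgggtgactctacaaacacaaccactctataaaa
Mmp10: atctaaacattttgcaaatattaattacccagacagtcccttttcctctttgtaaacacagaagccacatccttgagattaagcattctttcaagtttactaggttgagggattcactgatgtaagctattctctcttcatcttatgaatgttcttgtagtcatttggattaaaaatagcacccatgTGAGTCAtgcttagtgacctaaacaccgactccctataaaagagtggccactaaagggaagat
Mmp13: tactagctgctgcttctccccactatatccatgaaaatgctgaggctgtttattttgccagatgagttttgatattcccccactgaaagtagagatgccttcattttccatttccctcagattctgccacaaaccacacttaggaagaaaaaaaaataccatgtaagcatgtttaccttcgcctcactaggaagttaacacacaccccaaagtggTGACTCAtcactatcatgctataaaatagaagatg
The heptamer stood in the windows of 25 of 229 genes that rose (10.9%), 4 of 112 that fell (3.57%) and 447 of 10004 genes tested (4.47%). For genes that rose, genes that fell and all genes tested, the shares were 2.62%, 0.00% and 1.46% for the NF-kappaB motif, and 17.0%, 25.9% and 21.6% for the hypoxia type ACGTG. The heat shock element stood in 0 windows of genes that rose or fell and in 0.31% of all, and both strands were searched throughout. STAT and AP-1 matches overlapped each other in 2 of the 10004 windows, and AP-1 and hypoxia matches in 13.

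Ogn, Aspn and Ecm2, neighbouring matrix genes on chromosome 13, fell, while the fibroblast proteoglycan genes Dcn (-0.50) and Lum (-0.17) did not pass. Ogn, a small leucine-rich proteoglycan (ENSMUSG00000021390, chromosome 13, 49608046 to 49624501), was at 13.2 to 25.9 with DSS (median 19.7) and 45.8 to 96.4 without (median 64.6). The groups were apart, with a difference of -1.78 ± 0.21 (limma adjusted p = 0.00230). Nearby, Aspn, a proteoglycan of the same family (49544443 to 49567565), was at 4.28 to 14.5 with DSS and 23.5 to 44.3 without (-1.50 ± 0.27, limma adjusted p = 0.0141), lowest in CD+DSS replicate 2. The Aspn call was lost without HFD+DSS replicates 1 and 3 (limma adjusted p = 0.0596). Ecm2, another matrix gene of the same stretch (49504810 to 49532789), was at 0.405 to 1.19 with DSS and 1.22 to 4.04 without (-0.83 ± 0.18, limma adjusted p = 0.0341), a call lost in 8 of 12 fits that left out a library. Ecm2 was named after its values were seen. Of 24 tested genes of collagens and fibroblast matrix, 1 rose (Mgp, 1.39 ± 0.28, limma adjusted p = 0.0257) and 1 fell (Ogn), with a median of -0.09. Each was 4.17% of the list, against 2.10% higher and 1.11% lower over all genes tested. The Mgp call was lost in 5 of 12 fits that left out a library (adjusted p up to 0.0718 in limma).

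Hedgehog signalling passes from the epithelium to stromal cells, where Hhip and Ptch1 are known targets and inhibitors of the pathway. Hhip was at 0.180 to 0.912 with DSS (median 0.529) and 2.13 to 5.43 without (median 2.54), with no overlap (-1.31 ± 0.19, limma adjusted p = 0.00555). Ptch1, the receptor, was at 1.80 to 3.15 with DSS and 3.57 to 6.99 without (-0.74 ± 0.17, limma adjusted p = 0.0375), although that call was lost in 9 of 12 fits that left out a library. A further target, Gli1, was negative and did not pass (-0.66 ± 0.17, limma adjusted p = 0.0591), and the ligand gene Ihh was at 0.21 ± 0.25 (limma adjusted p = 0.634). These genes were named after values were seen.

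A few genes of the crypt base fell with DSS. Of 16 tested stem and crypt-base markers, 3 fell and 0 rose (18.8%, against 1.11% of all genes tested), with a median of -0.34. Axin2, the Wnt pathway's own feedback gene (ENSMUSG00000000142, chromosome 11, 108920349 to 108950783), was at 2.47 to 4.09 with DSS (median 3.54) and 5.44 to 10.0 without (median 7.00). No value was shared between the groups (-0.89 ± 0.15, limma adjusted p = 0.0114). Tnfrsf19, a Wnt-responsive receptor of the crypt base, was at 0.469 to 0.874 with DSS and 1.11 to 2.07 without (-0.65 ± 0.10, limma adjusted p = 0.00732), and the ion cotransporter gene Slc12a2 at 35.3 to 67.9 with DSS and 74.5 to 95.4 without (-0.81 ± 0.16, limma adjusted p = 0.0237). Lgr5, the receptor that marks crypt stem cells, was below the filter and not tested, at 0.108 to 0.888 with DSS (median 0.292) and 0.818 to 1.41 without (median 0.948). Cd24a, a surface glycoprotein of crypt cells and immune cells, was at 59.9 to 148 with DSS (median 106) and 196 to 285 without (median 232), with no overlap (-1.19 ± 0.18, limma adjusted p = 0.00732). Slc12a2 lost its call without HFD replicate 2 or CD replicate 1 (adjusted p up to 0.0727).

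Of 24 proliferation genes, 21 were negative (median -0.19) and 0 passed. All 10 tested tuft cell markers were negative (median -0.34), again with 0 calls. Colonocyte (24 tested, median 0.00), goblet cell (23 tested, median -0.22) and enteroendocrine genes (12 tested, median 0.07) and junction genes (17 tested, median 0.20) had 0 calls. Against 3.21% of all genes tested, a count of 0 says little for any of these lists. Genes of wound-associated and fetal-like epithelium, which mark a regenerating surface, were positive in 20 of 22 (median 0.59). Of these, 1 passed (4.55%, against 2.10% of all genes tested), the interleukin 1 receptor antagonist gene Il1rn. It was at 10.9 to 19.3 with DSS and 2.87 to 10.5 without (1.28 ± 0.26, limma adjusted p = 0.0258), a call lost in 4 of 12 fits that left out a library.

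**Figure D2:**
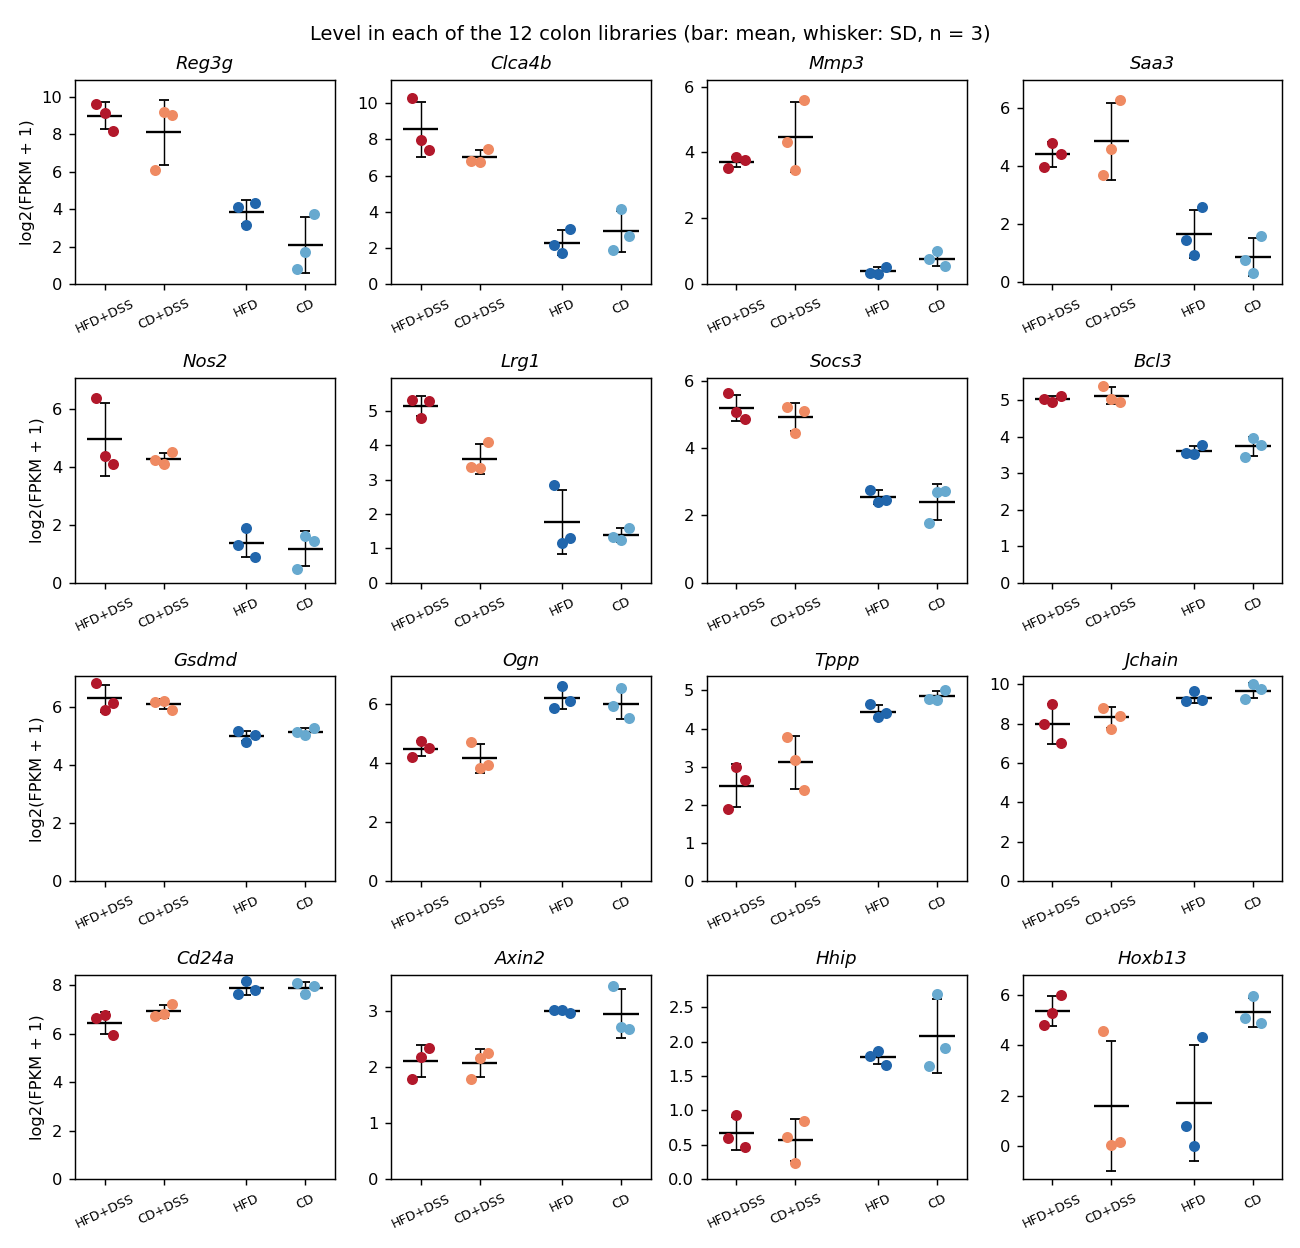
Levels of 16 genes are drawn as log2(FPKM + 1) on the y axis for each library, with the groups HFD+DSS, CD+DSS, HFD and CD on the x axis, a bar at the mean and a whisker of 1 SD (n = 3). Points of the DSS groups lie apart from the others in every panel except that of Hoxb13, where CD+DSS and HFD each hold libraries near 0.

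Enteric glia carried 1 call, a rise, among 8 tested genes (12.5%, against 2.10% of all genes tested). Gfap, the intermediate filament of reactive glia (ENSMUSG00000020932, chromosome 11, 102887336 to 102900912), was at 2.76 to 9.79 with DSS (median 4.37) and 0.908 to 1.22 without (median 1.11). The groups were apart (1.57 ± 0.24, limma adjusted p = 0.00732), while the list median was 0.05 and the summed FPKM of the glial markers was 54.5 to 101 with DSS and 49.3 to 98.6 without. Smooth muscle (15 tested, median -0.06), enteric neuron (13 tested, median 0.34) and endothelial genes (14 tested, median -0.14) had 0 calls. Adipocyte markers had a median of -0.56 over 13 genes and 0 calls. With 3.21% of all genes tested called, counts of 0 in lists of this size say little about these cell types.

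Further genes with large and separate changes fell outside these lists. Mfsd2a, a transporter of lysophospholipids, was at 7.67 to 22.6 with DSS and 0.781 to 2.58 without (2.09 ± 0.26, limma adjusted p = 0.00285). Myl7, a myosin light chain best known from the heart atrium, was at 7.92 to 26.7 with DSS and 1.22 to 7.01 without (1.87 ± 0.34, limma adjusted p = 0.0154). Trim15, a RING-domain protein, was at 20.8 to 93.2 with DSS and 7.40 to 15.4 without (1.87 ± 0.30, limma adjusted p = 0.00989). The groups of these 3 genes were apart. The membrane-bound serine protease genes Prss22 and Prss27 rose by 2.16 ± 0.31 and 1.82 ± 0.25 (limma adjusted p = 0.00555 for each). The actin-capping protein gene Capg rose by 1.32 ± 0.15 (limma adjusted p = 0.00223). Capg and the protease genes were named after their values were seen.

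Among the falls, Nxpe2 (ENSMUSG00000032028, chromosome 9, 48318006 to 48353454) was at 2.38 to 7.64 with DSS (median 5.77) and 14.5 to 46.1 without (median 22.5), a difference of -2.09 ± 0.31 (limma adjusted p = 0.00640). Tppp (ENSMUSG00000021573, chromosome 13, 74009407 to 74035753) was at 2.70 to 12.7 with DSS and 18.7 to 31.1 without (-1.84 ± 0.23, limma adjusted p = 0.00285). Cdo1, which oxidises cysteine, was at 5.81 to 16.7 with DSS and 22.6 to 33.3 without (-1.34 ± 0.23, limma adjusted p = 0.0114). The glucocorticoid-induced gene Tsc22d3 was at 8.06 to 11.5 with DSS and 12.4 to 21.7 without (-0.86 ± 0.13, limma adjusted p = 0.00824). These 4 genes had no overlap between groups. The axon guidance gene Sema5a, the LIM protein gene Fhl1, the G protein subunit gene Gnai1 and the caveolar coat gene Cav1 fell by 0.94, 0.94, 0.87 and 0.83 (log2; adjusted p of 0.0134, 0.0242, 0.0258 and 0.0313 in limma). Fhl1, Gnai1 and Cav1 lost their calls in 3, 3 and 5 of 12 fits that left out a library.

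Autophagy, which the study set out to examine, had no call among 40 tested genes of its core machinery (0.00%, against 3.21% of all genes tested). At that share a list of this size can hold few calls, so the count says little about autophagy. The median was -0.02 and the range was -0.42 to 0.33. Of 29 lysosomal genes, 1 rose (3.45%, against 2.10% of all genes tested). It was the cathepsin gene Ctsz (0.60 ± 0.14, limma adjusted p = 0.0390), which lost its call in 10 of 12 fits that left out a library. Outside the list, Retreg1, a receptor for autophagy of the endoplasmic reticulum, was at 10.8 to 20.1 with DSS and 21.4 to 41.5 without (-0.86 ± 0.19, limma adjusted p = 0.0341). Trp53inp1, a stress protein that binds autophagosome proteins, was at 6.31 to 20.5 with DSS and 24.4 to 35.5 without (-1.01 ± 0.23, limma adjusted p = 0.0375). The groups were apart for both genes, and the calls were lost in 8 and 7 of 12 fits that left out a library (adjusted p up to 0.0891 and 0.103).

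Gsdmd and Ripk3, genes of lytic cell death, rose. Gsdmd, which forms the pores of pyroptosis (ENSMUSG00000022575, chromosome 15, 75862327 to 75867408), was at 59.0 to 113 with DSS (median 71.1) and 27.2 to 37.9 without (median 33.4). No DSS library came near the other group (1.12 ± 0.16, limma adjusted p = 0.00555). Gsdmd was the 1 call among 17 tested inflammasome and gasdermin genes (5.88%, against 2.10% of all genes tested). That list had a median of 0.08, with 11 members positive and 6 negative. Ripk3, the kinase of necroptosis, was at 22.0 to 52.4 with DSS and 9.37 to 15.5 without (1.37 ± 0.19, limma adjusted p = 0.00555) and was named after its values were seen.

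Some genes of stress responses rose. All 23 tested hypoxia and glycolysis genes were positive (median 0.46), and 4 rose (17.4%, against 2.10%), which were Egln3, Car9, Pfkp and Eno1. Car9, a carbonic anhydrase induced by hypoxia, was at 24.4 to 41.6 with DSS and 11.6 to 22.0 without (0.78 ± 0.14, limma adjusted p = 0.0141), and the oxygen sensor gene Egln3 at 20.6 to 46.7 with DSS and 13.5 to 20.4 without (0.88 ± 0.18, limma adjusted p = 0.0241). With HFD+DSS replicates 1 and 3 left out, 2 genes of the list passed, and with a single library left out 1 to 6. Heat shock genes had a median of 0.53, and 4 of 15 rose (26.7%, against 2.10%). Hspa1b, an inducible chaperone, was at 13.5 to 74.6 with DSS and 5.97 to 24.5 without, with overlap (1.73 ± 0.25, limma adjusted p = 0.00556), and its near-identical copy Hspa1a rose by 1.30 ± 0.23 (limma adjusted p = 0.0141), so the split between them is uncertain. Without HFD+DSS replicates 1 and 3, 1 heat shock gene passed, and with a single library left out 2 to 5. Of 16 tested NRF2 targets, 2 rose (12.5%, against 2.10%), the metallothionein gene Mt1 (37.8 to 126 with DSS and 19.8 to 43.4 without) and the haem oxygenase gene Hmox1 (4.08 to 14.4 with DSS and 1.42 to 3.43 without), by 1.29 ± 0.27 and 1.15 ± 0.26 (limma adjusted p = 0.0295 and 0.0378). These calls were lost in 4 and 7 of 12 fits that left out a library. Unfolded protein response (18 tested, median 0.10), nuclear-encoded respiratory chain (31 tested, median 0.17), mitochondrially encoded (13 tested, median -0.35), bile acid (11 tested, median 0.29) and cholesterol synthesis genes (23 tested, median -0.06) had 0 calls. That says little beside the 3.21% called over all genes tested. Of 27 genes of fatty acid oxidation, 1 rose (3.70%, against 2.10% of all genes tested). It was Angptl4 (1.01 ± 0.24, limma adjusted p = 0.0436), which lost the call in 8 of 12 fits that left out a library.

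**Figure D3:**
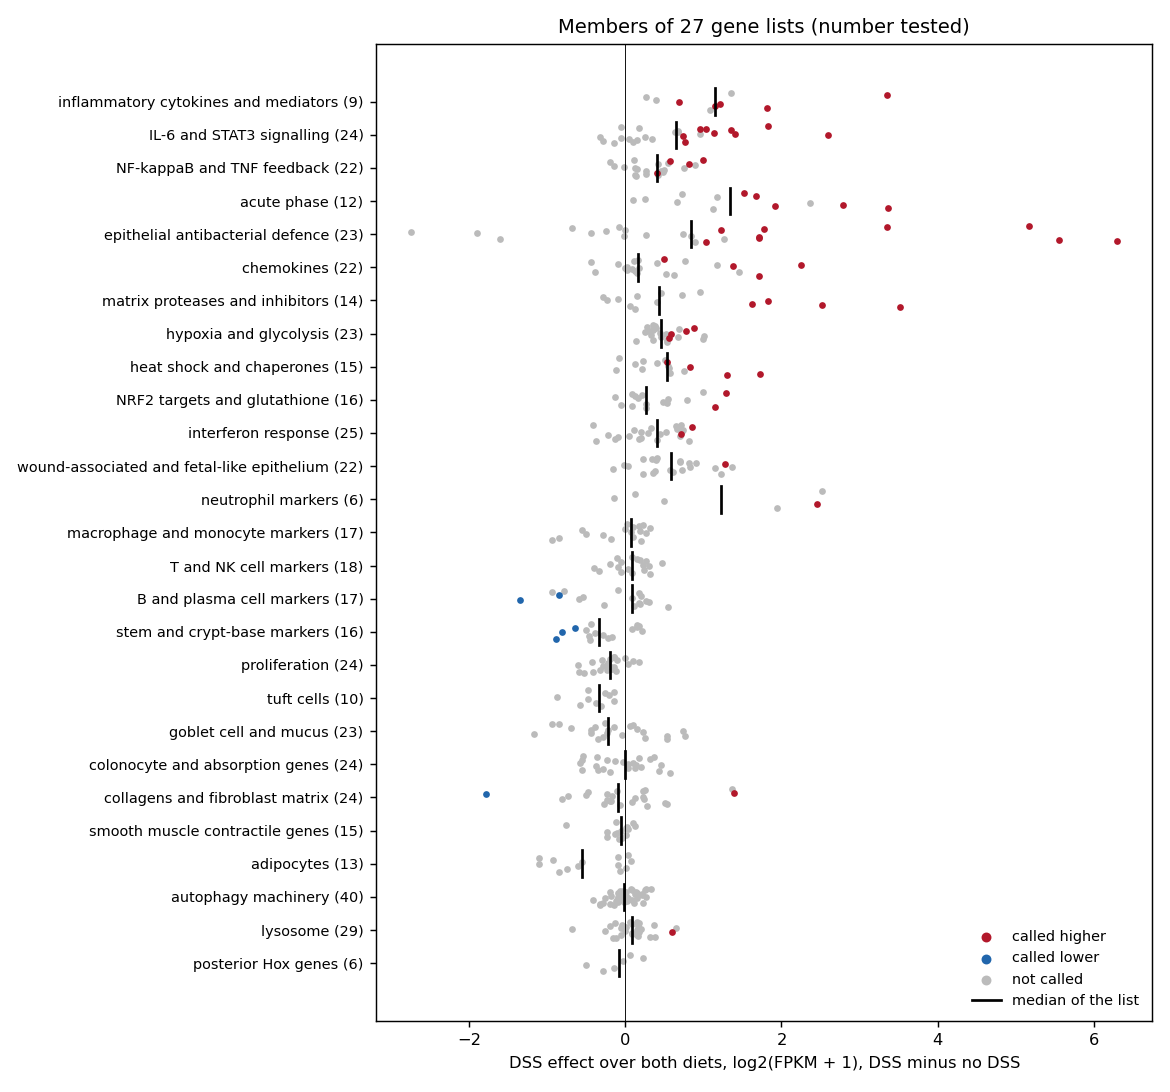
Each row is 1 of 27 gene lists with the number of members tested, and each point is a member placed on the x axis by its DSS minus no-DSS difference in log2(FPKM + 1). Red points passed the test upward, blue points downward, and the black bar is the list median, which lies at 1.34 for acute-phase genes and at -0.02 for autophagy machinery.

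The same genes were then followed within each diet. All 298 genes that rose were positive and all 157 that fell were negative under both HFD and CD, which the pooled test favours by its construction. The median difference of the rising genes was 0.73 for HFD+DSS minus HFD and 0.79 for CD+DSS minus CD, and that of the falling genes was -0.67 and -0.64. Within both diets, the 3 DSS libraries and the 3 others were apart for 252 of the 298 and 116 of the 157, against 480 genes with DSS above (3.39%) and 274 with DSS below (1.93%) over all genes tested. Of the genes that rose, 162 had the larger difference under CD. In single libraries, the median of the 298 genes over the no-DSS mean was 0.63 to 0.85 with DSS and -0.18 to 0.17 without, and that of the 157 genes was -0.76 to -0.47 with DSS and -0.10 to 0.12 without.

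A test of the difference between diets, the interaction of diet and DSS in limma, called 0 of 14179 genes (0.00%). Before adjustment 769 genes had a p under 0.05 (5.42%), and a voom fit to the recovered fragments also called 0. A p above the threshold does not show that the diets act alike. Some genes called in the pooled test had unlike values in the 2 diets. For Pla2g5 the difference was 2.53 ± 0.24 under HFD and 0.89 ± 0.24 under CD (interaction limma adjusted p = 0.560). Libraries without DSS were at 1.06 to 2.19 in HFD and 4.45 to 6.73 in CD, while HFD+DSS was at 11.2 to 20.1 and CD+DSS at 9.25 to 13.0. Slpi was likewise larger under HFD (2.64 ± 0.45, against 0.78 ± 0.45 under CD, interaction limma adjusted p = 0.772). Mmp10 was larger under CD (1.25 ± 0.62 under HFD and 3.80 ± 0.62 under CD, interaction limma adjusted p = 0.772), as was Il4ra (0.64 ± 0.19 under HFD and 1.26 ± 0.19 under CD, interaction limma adjusted p = 0.885), and none of these 4 passed. Under HFD and CD, Socs3 was at 2.66 ± 0.30 and 2.52 ± 0.30, Bcl3 at 1.42 ± 0.17 and 1.39 ± 0.17 and Sbno2 at 1.12 ± 0.17 and 1.13 ± 0.17, differences smaller than the SE of each value.

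**Figure D4:**
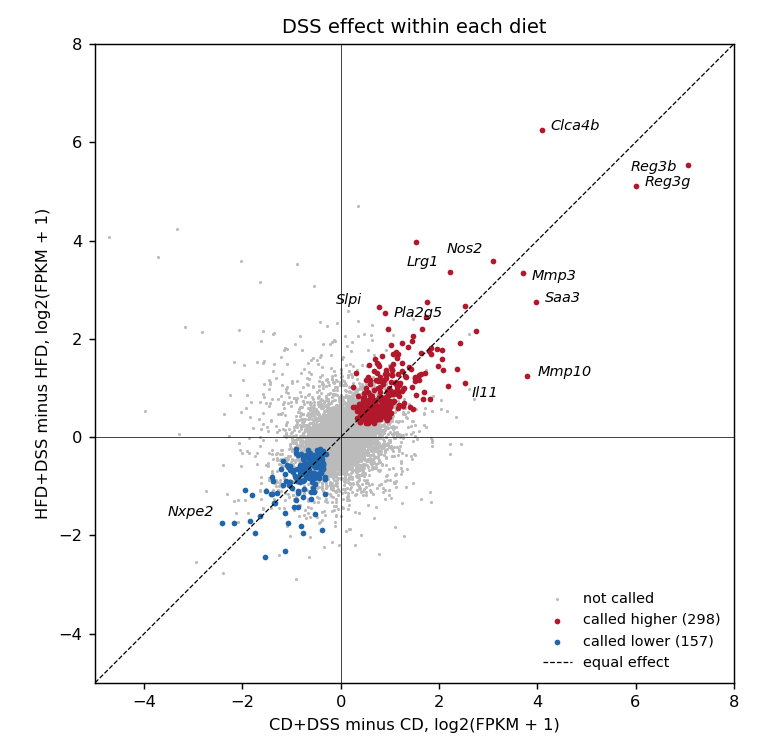
Each gene is placed by its CD+DSS minus CD difference on the x axis and its HFD+DSS minus HFD difference on the y axis, both in log2(FPKM + 1), with genes called over both diets in red (298) and blue (157) and equal effects on the dashed line. Clca4b, Lrg1, Slpi and Pla2g5 lie above the line, and Mmp10 and Il11 below it.

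The 5 smallest interaction p belonged to genes that did not pass the pooled test. Nkg7, a granule protein of cytotoxic lymphocytes, was at 2.65, 4.43 and 3.55 in HFD+DSS against 11.3, 12.0 and 8.28 in HFD, and at 11.6, 8.51 and 8.29 in CD+DSS against 2.43, 2.51 and 6.04 in CD. DSS libraries were thus lower under HFD and higher under CD, and the pooled difference was -0.05 ± 0.42 (limma adjusted p = 0.949, interaction limma adjusted p = 0.174). Pla2g2f, a secreted phospholipase gene, was at 7.40 to 12.7 in HFD+DSS against 1.53 to 3.78 in HFD, and at 3.22 to 8.15 in CD+DSS against 12.3 to 14.7 in CD (interaction limma adjusted p = 0.174). The glutamate transporter gene Slc1a1, the receptor segment Trgj1 and 9030619P08Rik had adjusted interaction p of 0.183, 0.174 and 0.183.

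Libraries also differed in genes of position along the gut, in a way that did not follow DSS over both diets. Hoxb13, a Hox gene of the hindgut's far end, was at 27.4, 37.8 and 62.8 in HFD+DSS and 22.6, 0.0336 and 0.122 in CD+DSS, against 0.711, 0 and 19.3 in HFD and 32.9, 61.3 and 28.8 in CD. Low libraries thus stood in CD+DSS and HFD, so that the pooled difference was -0.03 ± 1.35 (limma adjusted p = 0.990), against 3.66 ± 1.23 under HFD and -3.72 ± 1.23 under CD (interaction limma adjusted p = 0.560). Of 6 tested posterior Hox genes, 0 were called (against 3.21% of all genes tested, so the count says little). Hoxa13 and Hoxd13 had pooled differences of -0.50 ± 0.47 and 0.06 ± 0.94. With the averaged log2 values of Hoxb13, Hoxa13 and Hoxd13 as a covariate, 505 genes were called for DSS, 319 higher and 186 lower. With the same covariate the interaction still called 0 genes, and 175 had an unadjusted p under 0.05, against 769 without it. The covariate itself was at 3.74 to 4.57 in HFD+DSS and 3.13 to 5.11 in CD, against 0.473 to 3.26 in CD+DSS and 1.23 to 3.53 in HFD. It thus ran largely with the interaction term, and a lower count can follow from that overlap alone. Whether position along the colon accounts for differences between the diets was not tested.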

How the data were processed

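Colon mRNA was profiled in 12 libraries, prepared from total RNA by the SMARTER method per the labels' protocols. The authors deposited 1 table of FPKM values, which are fragments divided by gene length and library size, on the mm10 build, per the submitters' processing notes. The aligner, counting tool, annotation and strand setting were not given in the sources used here. Deposited FPKM were already scaled to equal median ratios between libraries. Symbols and coordinates came from GENCODE M21, which named 54495 of the 54532 identifiers.

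Values were analysed as log2(FPKM + 1) with limma 3.58.1 in R 4.3.3 (lmFit, eBayes with a trend, diet as an additive covariate). P-values were Benjamini-Hochberg adjusted over the 14179 genes that reached FPKM 1 in 3 or more libraries, and genes under 0.05 were called. The scale understates changes of low genes. The interaction of diet and DSS was fitted on the same genes. Fragments recovered from low FPKM steps (96.9% to 97.2% of values whole within 0.1 fragment) gave depth and a voom fit. On simulated data with 200 changed genes, the DSS test called 74.7% of tested genes changed 2-fold and 100% of those changed 4-fold, with 8 and 21 false calls beside 148 and 200 true ones. Deviations of same-numbered samples of different groups had a median r of -0.109 (18 pairs), and the numbers were not treated as pairs in the main fit.

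The 47 gene lists (904 entries, 763 distinct genes tested) and the genes to describe were chosen with earlier results of these data known. Named genes were the 15 largest rises and falls with groups apart and a mean FPKM of 5 or more in the higher group, leaving out predicted genes and immunoglobulin or T cell receptor segments, the 3 smallest p of each list, the 5 smallest interaction p and the posterior Hox genes. Other called list members were named after their values were seen. Lists are described by counts and medians. Promoters came from RefSeq (GRCm38.p6) and matched 10004 of the 14179 genes by symbol or identifier. Where a gene had several RefSeq starts, the first listed was taken, which can differ from the GENCODE start.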

Additional observations from a re-analysis of the deposited data

Results flagged for a closer look

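Among 148 sets of 6 libraries (the DSS libraries or the libraries without DSS, for each gene given by library or range), 15 held a library whose gap to its nearest neighbour exceeded Dixon's 95% critical value for 6 values. Chance gives about 1 in 20.

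HFD+DSS replicate 1 was such a library for 4 genes, as the highest DSS value of Clca4b (FPKM 1250.7), Nos2 (82.7), Mfsd2a (22.6) and Gsdmd (113). HFD+DSS replicate 3 was the lowest DSS library for Trp53inp1 (6.31). CD+DSS replicate 1 was the lowest for Reg3b (305.0) and the highest for Bcl3 (40.5), CD+DSS replicate 2 the lowest for Aspn (4.28) and Hoxa13 (1.59), and CD+DSS replicate 3 the highest for Lcn2 (14.3) and Il6 (1.52). Among libraries without DSS, the highest values that stood apart were HFD replicate 1 for Lrg1 (6.11), CD replicate 2 for Cxcl5 (0.922) and Hhip (5.43) and CD replicate 3 for Lcn2 (0.892). With HFD+DSS replicate 1 left out, 401 genes were called for DSS, 290 higher and 111 lower.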

How the results depend on the processing

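The number of genes called for DSS depended on the setting more than did the direction of the 83 called genes followed below. Against 455 calls (298 higher, 157 lower), no filter on low values gave 178 (135 and 43, of 30860 genes), scaling to TPM 248 (157 and 91), and weighting libraries 2426 (1473 and 953). A covariate for smooth muscle level gave 248 lower genes. Without HFD+DSS replicates 1 and 3 the count was 139 (105 and 34). Leaving out 1 library gave 141 (without HFD replicate 2) to 523 (without CD replicate 3), with 103 to 339 higher and 32 to 184 lower. It was 143 without CD replicate 1, 200 without CD replicate 2, 213 without CD+DSS replicate 1 and 225 without CD+DSS replicate 3. Within CD alone 0 genes passed (2450 at an unadjusted p under 0.05), and within HFD alone 12 (10 higher, 2 lower). The cause of these shifts was not tested, apart from the fewer libraries or more genes that a setting itself brings.

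With the replicate number as a block 226 genes passed (159 higher, 67 lower). The labels do not say what the numbers mean. Deviations of 18 same-numbered pairs correlated at -0.462 to 0.204, with 3 over 0.1. With groups of 3, these correlations cannot exclude a pairing or a shared batch.

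The interaction of diet and DSS called 0 genes, 1 without the filter, 23 with library weights and 0 to 3 with a library left out (1 without CD+DSS replicate 1, 3 without CD replicate 3).

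Of 83 called genes followed through the settings, 0 changed direction in any of 30 alternatives and 38 passed in all 28 that use both diets. Of the 83, 34 lost the call in at least 1 of 12 fits that left out a library. Other called genes named in the text were not among the 83. Among these, Gchfr, Serpina3n, Il33, Cebpd, Cd14, Cxcl1, Eno1, Retnla and mt-Te each lost the call in at least 1 of those 12 fits. Capg, Prss22 and Prss27 kept it in all 12. Over all genes, 130 (99 higher, 31 lower) passed in each of those 12. Depth limits genes near FPKM 1, such as cytokines and neutrophil genes.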
